A study of Mus musculus with 24 samples.

Results

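The genes described here are 32 genes of glycolysis and of the response to low oxygen, given as a list of symbols and matched by symbol, current or former, to the Entrez gene models of the deposited counts. All 32 matched, among 36528 gene models, and 31 of them were among the 15429 genes with enough reads to be tested. Ldhb was not tested: it stood between 0 and 1.1 CPM (read counts relative to the library total, scaled between libraries by TMM) in 23 libraries and at 3.08 CPM in dFz7-21 24 h replicate 3. Ero1l is listed under its former symbol, the current one being Ero1a.

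Glycolysis splits glucose into pyruvate in the cytosol. Hexokinases and phosphofructokinases spend ATP to prime the sugar, the enzymes from Gapdh to Pkm earn it back, and lactate dehydrogenase turns pyruvate into lactate, which leaves the cell through monocarboxylate transporters. Hypoxia-inducible factors (HIF) are transcription factors whose alpha subunits are hydroxylated by the Egln enzymes and then degraded when oxygen is plentiful, and many glycolytic genes are among their targets. In the intestinal crypt, glycolytic and oxidative metabolism are known to differ between stem cells, Paneth cells and enterocytes.

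Polyadenylated RNA was sequenced from organoids of mouse small intestine, which are three-dimensional cultures of the intestinal epithelium, in 6 groups of 4 libraries: DMSO (the vehicle), Fz7-21S or dFz7-21 for 6 h or 24 h. By the design text, dFz7-21 is a peptide blocker of Frizzled 7, one of the receptors for Wnt ligands, and the labels give nothing on Fz7-21S except its name, nor any dose, medium, strain or age. Whether replicates are separate cultures or animals is not stated, and the p-values thus rest on a spread between libraries that may be technical. In bulk RNA of this kind, fewer cells of a type and less RNA per cell cannot be told apart.

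The total count of a library, in units of 1 M, was 20.4 to 33.1 (median 25.1), and a floor of 3 counts corresponds to 0.0906 to 0.147 CPM. The 6 epithelial markers summed to 9880 to 12600 CPM at 6 h and to 6160 to 7630 CPM at 24 h over the 3 treatments. The 4 endothelial markers summed to at most 1.30 CPM and the 6 immune markers to at most 10.9 CPM. A group of 3 libraries held mesenchymal transcripts: the 10 mesenchymal markers summed to 194 and 139 CPM in DMSO 6 h replicates 1 and 2 and to 924 CPM in dFz7-21 24 h replicate 3, against 4.61 to 14.1 CPM in the other 21. Fz7-21S 24 h replicate 4 stood apart from the other replicates of its group, with a chi-square per degree of freedom of 74.9 to 96.1 against each, where the other pairs within all groups gave 2.86 to 18. Stem cell markers (4 genes) summed to 170 to 254 CPM with dFz7-21 at 24 h and to 1790 to 2440 CPM with DMSO, Paneth cell markers (4 genes) to 2000 to 2350 against 3050 to 3610 CPM, and enterocyte markers (7 genes) to 4520 to 5280 against 2600 to 3100 CPM. Sums also lay apart for goblet (2430 to 2900 against 1940 to 2130 CPM), enteroendocrine (215 to 273 against 181 to 195 CPM), immune (9.67 to 10.9 against 5.52 to 7.04 CPM) and dying or stressed cell markers (60.1 to 80.7 against 44.8 to 53.4 CPM). The same held for mesenchymal markers (9.24 to 924 against 6.36 to 8.22 CPM) and, barely, for epithelial markers (6640 to 7290 against 6160 to 6630 CPM). At 6 h stem cell markers summed to 1180 to 1390 CPM with dFz7-21 and 1690 to 1830 CPM with DMSO, and goblet cell markers to 2110 to 2140 against 1750 to 1880 CPM. Epithelial markers then summed to 12100 to 12600 against 9880 to 11300 CPM. No gene of the stem cell, Paneth cell and enterocyte lists was without reads in a group. These markers moved with the treatment, and the epithelial sums also with time. With DMSO, sums at 6 h and 24 h lay apart for enteroendocrine markers too (271 to 336 and 181 to 195 CPM). The same held for goblet (1750 to 1880 and 1940 to 2130 CPM) and tuft cell markers (33 to 34.6 and 21 to 29.2 CPM). The part of any of these markers in the values below was not tested.

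Hypoxia-inducible factors bind a short core, ACGTG or GCGTG, and both strands of the 300 bases around each start site (250 before and 50 after, RefSeq, GRCm38.p6) were searched for it, counting overlapping matches as 1 stretch. Of the 32 genes, 30 (93.8%) had such a match in at least 1 promoter, against 46.7% of 27025 genes in the RefSeq table. Over promoters, 40 of 48 (83.3%) held it, against 43.8% of all 32851. This is a description of letters and not of bound sites, and start sites of 1 gene overlap in part. The list was chosen for glycolysis and the response to low oxygen and holds HIF targets, so a high share may follow from that choice. The comparison set was the whole RefSeq table and not the tested genes. It was not matched for promoters per gene (48 for 32 genes, against 32851 for 27025) or for base composition. Whether the members differ from a matched set was not tested. The promoters of Pfkp and Pfkfb4, the members with the smallest p against DMSO at 24 h that hold the core, are printed 5′ to 3′ with each match in capitals; Pfkp lies on the minus strand at chr13:6648722-6649021 and Pfkfb4 on the plus strand at chr9:108991652-108991951.
Pfkp: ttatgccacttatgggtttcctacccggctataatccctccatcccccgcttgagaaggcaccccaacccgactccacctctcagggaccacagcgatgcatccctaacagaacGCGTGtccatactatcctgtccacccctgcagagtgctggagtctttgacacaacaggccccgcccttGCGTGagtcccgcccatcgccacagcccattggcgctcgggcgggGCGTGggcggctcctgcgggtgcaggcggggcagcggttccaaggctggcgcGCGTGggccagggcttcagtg
Pfkfb4: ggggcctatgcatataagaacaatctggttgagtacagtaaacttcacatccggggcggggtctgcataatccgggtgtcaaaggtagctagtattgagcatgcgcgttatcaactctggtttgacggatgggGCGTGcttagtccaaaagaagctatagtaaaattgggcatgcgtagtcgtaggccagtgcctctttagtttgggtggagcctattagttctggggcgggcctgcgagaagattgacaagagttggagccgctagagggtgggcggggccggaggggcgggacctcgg
The Pfkp promoter held 4 stretches, all GCGTG, with first bases at -136, -68, -23 and 30 from the start site, and the Pfkfb4 promoter held 1, also GCGTG, at -117.

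**Figure D1:**
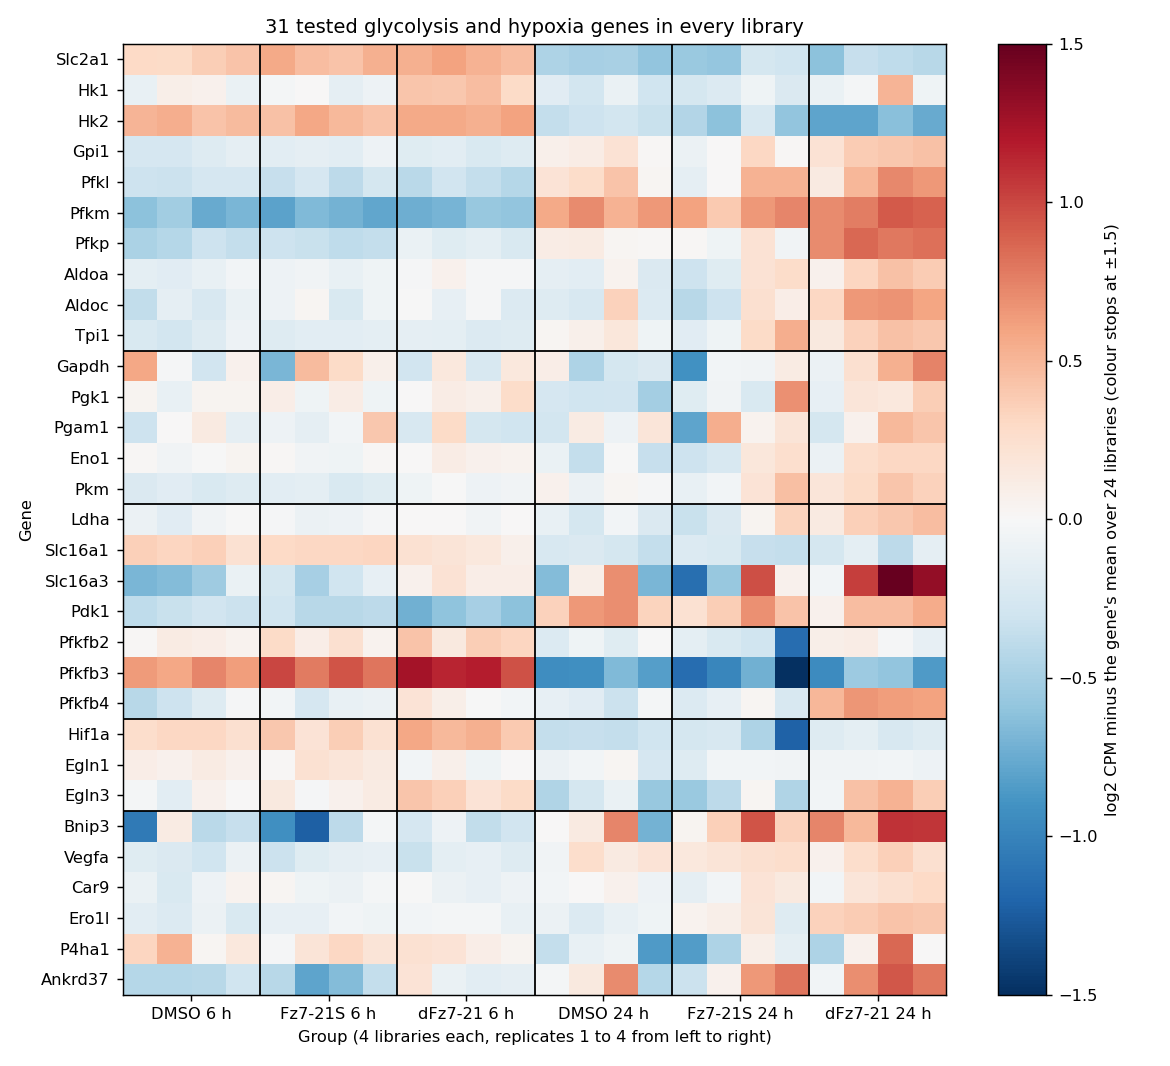
Level of the 31 tested genes (rows, grouped by role, with lines between roles) in each of the 24 libraries (columns), as log2 CPM minus the mean of that gene over all libraries. The columns part by time for Hk2, Slc2a1, Pfkfb3 and Pfkm, and the last group, dFz7-21 at 24 h, is highest for Pfkp and Pfkfb4.

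After 24 h with dFz7-21, most of the glycolytic enzymes were modestly higher than with DMSO, Hk2 was lower, and Hif1a, Slc2a1, Vegfa and Pdk1 did not pass the test. Of the 31 genes tested, 15 rose and 1 fell (edgeR quasi-likelihood test, Benjamini-Hochberg adjusted p below 0.05 over all genes), or 51.6%. Over all genes 35.9% were called, 18.2% as higher and 17.7% as lower. The median log2 difference was 0.31 over the 31 genes and -0.01 over all genes tested. Libraries of dFz7-21 and DMSO did not overlap for 12 of the 31 genes, where 38.4% of all genes did not overlap. Without the 3 libraries with mesenchymal transcripts 11 rose and 1 fell, while the calls over all genes went from 5537 to 4881.

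Among the uptake and priming steps 7 of 10 rose and 1 fell, where 18.2% of all genes rose and 17.7% fell. Hk1, Pfkm and Tpi1, among the 7, did not pass without the 3 libraries with mesenchymal transcripts (adjusted p = 0.132, 0.0968 and 0.0966). Pfkp, the platelet-type phosphofructokinase (chromosome 13, 6579874 to 6649060 on GRCm38, as are all positions here), had the smallest p of all 31. Its level with DMSO at 24 h was 213, 214, 201 and 199.5 CPM in replicates 1 to 4, the order in which all values are given. With dFz7-21 it was 320.1, 356, 341 and 347 CPM, so each of these libraries lay above every DMSO library. The difference was 1.65-fold, or 0.72 ± 0.06 on the log2 scale (SE, adjusted p = 4.6e-10). The gene overlaps Pitrm1, and whether strand was used in counting is not given in the sources used here.

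Hk2, a hexokinase that binds mitochondria (chromosome 6, 82725025 to 82774454), was the member that fell. It stood at 44.1, 45.5, 46.6 and 44.8 CPM with DMSO and at 32.7, 32.6, 36.6 and 33.5 CPM with dFz7-21, with no overlap. The difference was -0.42 ± 0.07 on the log2 scale (adjusted p = 1.92e-05). Hk1, the hexokinase of most tissues (chromosome 10, 62268855 to 62379920), passed in the other direction, at 0.31 ± 0.10 (adjusted p = 0.0151). Its levels were 27.3, 25.5, 28.8 and 25.1 CPM with DMSO and 28.8, 30.2, 43.8 and 29.4 CPM with dFz7-21. The high value was in replicate 3, where mesenchymal markers were also high, and without it Hk1 was 0.17 higher and did not pass (adjusted p = 0.0753). In a fit of the compared groups alone it did not pass either (0.0718).

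The aldolases Aldoa and Aldoc, which split fructose bisphosphate, rose by 0.42 ± 0.10 and 0.61 ± 0.13, and glucose-6-phosphate isomerase, Gpi1, by 0.26 ± 0.07. Pfkm, the muscle-type phosphofructokinase, rose by 0.21 ± 0.07 and the triose isomerase Tpi1 by 0.28 ± 0.10, both with overlapping groups. Pfkm did not pass without DMSO 24 h replicate 3 or dFz7-21 24 h replicate 3 (adjusted p = 0.0882 and 0.0549), nor did Tpi1 when replicate 2 or 4 of DMSO or replicate 3 or 4 of dFz7-21 was left out (0.0533 to 0.0942). Pfkm overlaps Senp1 and Tpi1 overlaps Spsb2, with the same limit on strand. The liver-type phosphofructokinase Pfkl, at 187, 240.0, 282 and 267 CPM against 196, 207, 229 and 174 CPM, did not pass (adjusted p = 0.0836).

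Slc2a1, the glucose transporter GLUT1 (chromosome 4, 119108745 to 119137330), did not pass. It stood at 102, 99.8, 101 and 93.3 CPM with DMSO and at 92.4, 111, 108 and 106 CPM with dFz7-21. The groups overlapped, and the log2 difference was 0.08 with a 95% interval of -0.06 to 0.22 (adjusted p = 0.396).

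**Figure D2:**
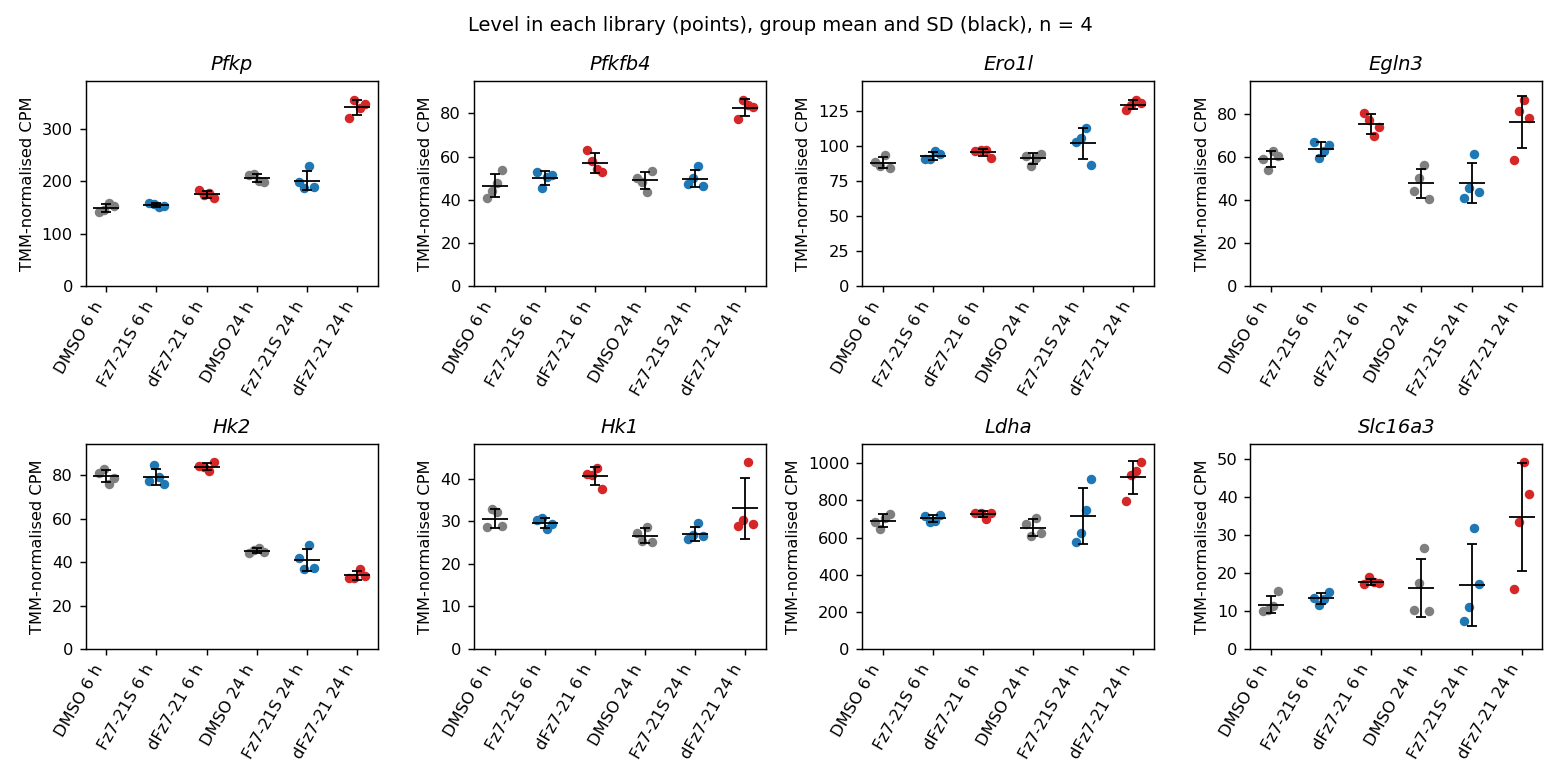
TMM-normalised CPM of 8 genes (panels) in every library (points), by treatment and time, with the group mean and SD in black, n = 4; axes start at 0. With dFz7-21 at 24 h Pfkp, Pfkfb4 and Ero1l lay above all other groups and Hk2 below them, while Hk1 was high in a single library and Slc16a3 spread widely.

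In the pay-off steps 3 of 5 rose against DMSO, where 18.2% of all genes did. Against Fz7-21S at 24 h, with the same dFz7-21 libraries, 0 of 5 were called. Pkm, the pyruvate kinase of most tissues (chromosome 9, 59656576 to 59679372), stood at 441, 397, 432 and 418 CPM with DMSO. It stood at 479, 516, 562 and 535 CPM with dFz7-21, above every DMSO library. The difference was 0.31 ± 0.08 (adjusted p = 0.00348). Eno1, enolase, rose by 0.40 ± 0.10 and Pgk1, phosphoglycerate kinase, by 0.49 ± 0.14.

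Part of this step group is uncertain because the deposited counts hold unique alignments, and these genes have many near-identical copies. Of the 50-base stretches of its longest coding transcript (GENCODE M21), 82.5% of those of Gapdh were found in transcripts of 226 other genes, 215 of them pseudogenes. The share was 72.2% for Eno1, 68.0% for Pgk1, 41.5% for Pgam1 and 34.4% for Pkm, and 16.6% for Ldha, 13.5% for Aldoa and 21.9% for Bnip3. In other steps it was 27.0% for Ldhb, 25.1% for Pfkfb2, 19.3% for Gpi1 and 7.51% for Tpi1, and at most 2.18% for the remaining members. Gapdh had 19 to 66 counts in a library and Pgam1, the phosphoglycerate mutase, 1.08 to 2.83 CPM. Both are levels of the uniquely aligned part, and neither gene passed (adjusted p = 0.083 and 0.501).

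Among the genes that handle lactate and pyruvate, Ldha and Slc16a3 rose and Slc16a1 and Pdk1 did not pass. Ldha, the lactate dehydrogenase subunit that favours lactate formation (chromosome 7, 46842274 to 46855627), stood at 672, 609, 708 and 627 CPM with DMSO. With dFz7-21 it stood at 798, 937, 960.4 and 1005 CPM, with no overlap between the groups. The difference was 1.41-fold, or 0.50 ± 0.10 on the log2 scale (adjusted p = 0.000212). Ldha made up 98.8% to 99.0% of the summed RPKM of Ldha, Ldhb and Ldhd in every group's mean.

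Slc16a3, the lactate exporter MCT4 (chromosome 11, 120948484 to 120959000), had the largest fold of the called members and the widest spread. It stood at 10.3, 17.4, 26.5 and 10.1 CPM with DMSO and at 15.8, 33.5, 49.1 and 40.8 CPM with dFz7-21. The groups overlapped, and the difference was 1.12 ± 0.37 on the log2 scale (adjusted p = 0.0227). Its SD on the log2 scale within the 24 h groups was 0.661 (DMSO), 0.899 (Fz7-21S) and 0.715 (dFz7-21), against 0.065 to 0.269 at 6 h. The call was lost when replicate 1 or 4 of DMSO or replicate 3 or 4 of dFz7-21 was left out (adjusted p from 0.0512 to 0.075), and in a fit of the compared groups alone (0.104). Slc16a3 overlaps Csnk1d. Slc16a1, the transporter MCT1, stood at 128, 138, 117 and 139.6 CPM with dFz7-21 against 129.7, 132, 128 and 119.7 CPM.

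Pdk1, a kinase that holds pyruvate dehydrogenase inactive (chromosome 2, 71873215 to 71903858), stood at 102, 126, 130.5 and 101 CPM with DMSO. With dFz7-21 it stood at 84.0, 111, 111 and 118 CPM, overlapping DMSO (-0.12 ± 0.10, adjusted p = 0.376).

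Of the 3 bifunctional enzymes that set fructose 2,6-bisphosphate, the activator of phosphofructokinase, only Pfkfb4 (chromosome 9, 108988272 to 109032236) was called at 24 h against DMSO. It stood at 50.2, 48.4, 43.8 and 53.5 CPM with DMSO and at 77.2, 86.3, 84.1 and 82.9 CPM with dFz7-21, with no overlap. The difference was 1.69-fold, or 0.75 ± 0.08 on the log2 scale (adjusted p = 7.76e-08). Pfkfb2 and Pfkfb3 differed by 0.13 ± 0.13 and 0.11 ± 0.12 (adjusted p = 0.458 and 0.505).

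Hif1a, the oxygen-regulated subunit of HIF-1 (chromosome 12, 73901324 to 73947554), stood at 119.5, 121, 119.8 and 124 CPM with DMSO. With dFz7-21 it stood at 134, 138, 129 and 134 CPM. No library overlapped, yet the difference of 0.15 ± 0.12 did not pass in the fit of all 24 libraries (adjusted p = 0.366). In a fit of the compared groups alone it passed (adjusted p = 0.00467). The spread of Hif1a in the fit of all libraries includes Fz7-21S 24 h replicate 4, which stood at 66.1 CPM against 111 to 129.6 CPM in the rest of that group. Hif1a protein, which the Egln enzymes control, was not measured.

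Egln3, an oxygen-dependent hydroxylase that is itself a HIF target (chromosome 12, 54178981 to 54203874), rose. It stood at 44.1, 50.1, 56.3 and 40.6 CPM with DMSO and at 58.8, 81.6, 86.6 and 78.0 CPM with dFz7-21, with no overlap. The difference was 0.68 ± 0.12 on the log2 scale (adjusted p = 7.02e-05). Egln1, the main hydroxylase of Hif1a, differed by 0.03 with a 95% interval of -0.09 to 0.14.

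Of the 6 other HIF targets 1 rose (16.7%), a share near the 18.2% of all genes. Ero1l, an oxidase that forms disulfide bonds in the endoplasmic reticulum (chromosome 14, 45283087 to 45318572), stood at 93.0, 86.1, 91.6 and 94.7 CPM with DMSO. With dFz7-21 it stood at 125, 129, 133 and 131 CPM, a narrow range above all DMSO libraries. The difference was 0.51 ± 0.06 (adjusted p = 3.04e-07).

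Vegfa, the endothelial growth factor (chromosome 17, 46016993 to 46032377), stood at 44.7, 56.1, 50.9 and 53.5 CPM with DMSO and at 48.7, 55.7, 59.8 and 55.1 CPM with dFz7-21. The groups overlapped almost wholly (0.10, 95% interval -0.05 to 0.25, adjusted p = 0.309). Bnip3, a mitophagy receptor (chromosome 7, 138890836 to 138909506), stood near the lower end of detection, at 1.13, 1.24, 1.93 and 0.659 CPM with DMSO and at 1.93, 1.61, 2.47 and 2.45 CPM with dFz7-21. Its difference of 0.76 ± 0.31 did not pass (adjusted p = 0.0536), but passed without DMSO 24 h replicate 3 (0.0147) or dFz7-21 24 h replicate 2 (0.0423). It also passed with all libraries of both groups under RLE factors (0.0489), a replicate block (0.0446), a fit of the compared groups alone (0.0446) and DESeq2 (0.0331). The acid-base enzyme Car9 (0.19, adjusted p = 0.0522), the collagen hydroxylase subunit P4ha1 (0.52, adjusted p = 0.0635) and Ankrd37 (0.48, adjusted p = 0.102) did not pass either. P4ha1 reached 30.2 CPM in dFz7-21 24 h replicate 3, which held mesenchymal transcripts, and 12 to 17.3 CPM in the rest of the group.

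**Figure D3:**
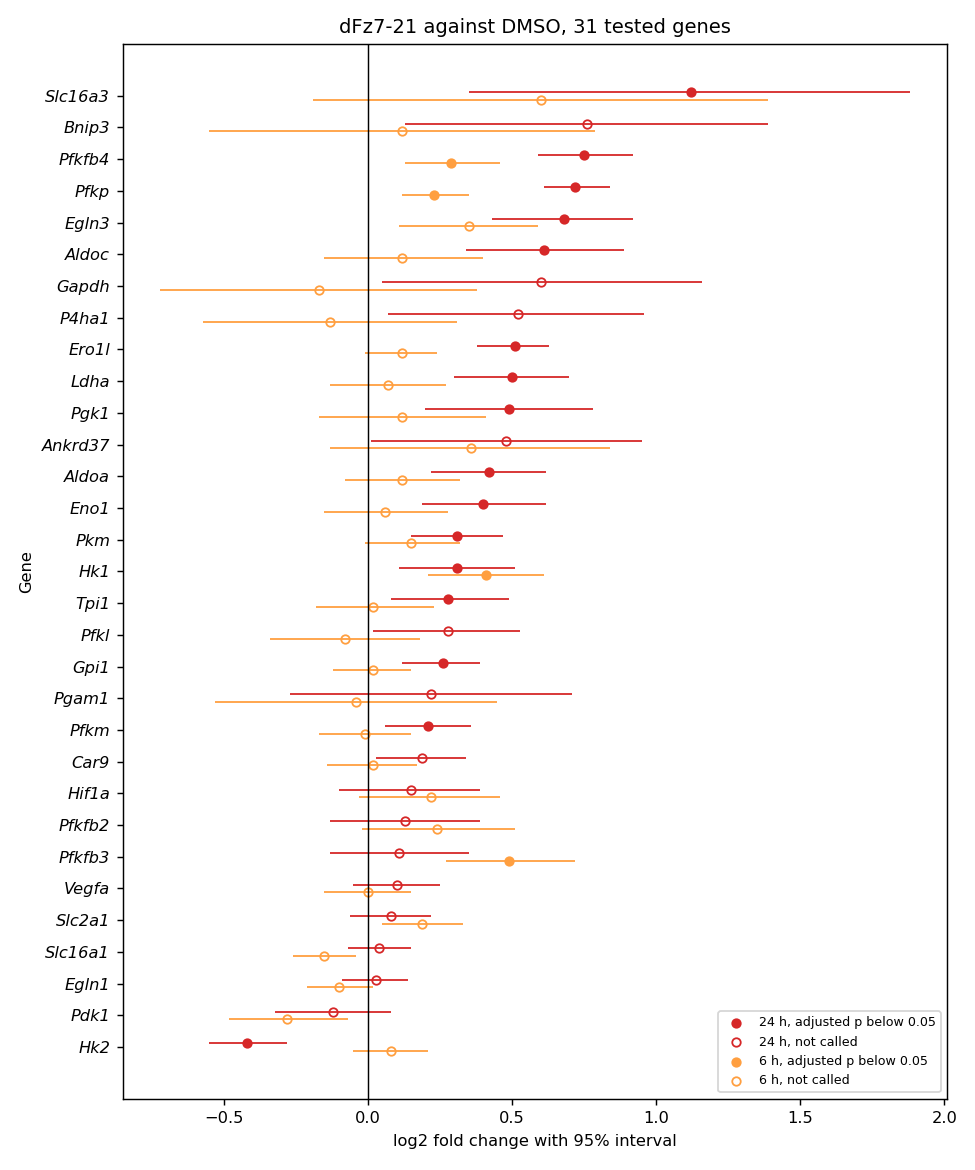
Log2 fold change of dFz7-21 against DMSO with its 95% interval for the 31 tested genes (rows, ordered by the value at 24 h), at 24 h (red) and 6 h (orange); filled points passed at an adjusted p below 0.05. At 24 h 15 points lie above 0 and filled and only Hk2 lies below 0 and filled, while at 6 h 4 are filled.

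The comparison of dFz7-21 with Fz7-21S at 24 h uses the same dFz7-21 libraries, so its values stand beside those against DMSO and are not independent of them. Of the 31 genes 13 rose and 1 fell, or 45.2%, where 33.7% of all genes were called, 16.5% as higher and 17.2% as lower, with a median of 0.29 against -0.01. Groups did not overlap for 6 of the 31, against 25.9% of all genes. In a fit of these groups alone 5 of the 31 were called, Pfkp, Pfkfb4, Ero1l, Egln3 and Aldoc, while the calls over all genes went from 5202 to 2305. Hk2, Gpi1, Ldha and Pfkfb2 had adjusted p of 0.0778, 0.0867, 0.143 and 0.161 in that fit. Pfkp stood at 199, 188, 228 and 189.7 CPM with Fz7-21S, all below the dFz7-21 libraries (0.76 ± 0.06, adjusted p = 2.78e-10). Pfkfb4 stood at 47.4, 50, 55.5 and 46.4 CPM, again all below (0.73 ± 0.08, adjusted p = 1.81e-07). Ero1l was at 103, 106, 113 and 86.7 CPM with Fz7-21S (0.35 ± 0.06, adjusted p = 6.51e-05).

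Egln3, at 41.0, 45.8, 61.5 and 44.0 CPM with Fz7-21S, overlapped dFz7-21 through replicate 3 (0.66 ± 0.12, adjusted p = 0.000104). Hk2 fell, from 41.8, 36.8, 47.8 and 37.5 CPM with Fz7-21S (-0.28 ± 0.07, adjusted p = 0.00204). Ldha, at 579, 625, 751 and 916 CPM with Fz7-21S, was 0.37 ± 0.10 higher with dFz7-21 (adjusted p = 0.00445). Its highest Fz7-21S library was replicate 4, the one that stood apart, and without it the difference was 0.53. Pfkfb2 and Pfkfb3, which were not called against DMSO, rose by 0.42 ± 0.13 and 0.34 ± 0.12. In Fz7-21S replicate 4 they stood at 39.5 and 14.5 CPM, below the 70.8 to 78.8 and 18.8 to 25.3 CPM of the rest. Without that library Pfkfb2 was 0.26 higher and still passed, and Pfkfb3 was 0.24 higher and did not (adjusted p = 0.0774). Pfkfb3 did not pass either without Fz7-21S 24 h replicate 1 or dFz7-21 24 h replicate 2 or 3 (0.0546 to 0.087).

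The other called members were Aldoc (0.64), Gpi1 (0.29), Pfkm (0.22), Aldoa (0.29), Hk1 (0.29) and Slc16a3 (1.04). Calls of Aldoa, Hk1, Pfkm and Slc16a3 were lost on leaving out a single library: Aldoa without Fz7-21S 24 h replicate 1 or 2 (adjusted p = 0.0611 and 0.0592), Hk1 without dFz7-21 24 h replicate 3 (0.109), Pfkm without Fz7-21S 24 h replicate 2 (0.0515), and Slc16a3 when replicate 1, 2 or 4 of Fz7-21S or replicate 2, 3 or 4 of dFz7-21 was left out (0.0514 to 0.0947). Pkm and Hif1a did not pass: Pkm stood at 391, 409.9, 488 and 576 CPM with Fz7-21S (0.17, adjusted p = 0.109), and Hif1a at 127, 129.6, 111 and 66.1 CPM (0.30, adjusted p = 0.0532). Pkm passed without Fz7-21S 24 h replicate 4 (0.30, adjusted p = 5.02e-05), without dFz7-21 24 h replicate 1 (0.23, 0.0398) and with DESeq2 (0.0461). Hif1a passed without Fz7-21S 24 h replicate 1, 2 or 4 or dFz7-21 24 h replicate 3 (0.0135 to 0.0442), with a difference of 0.15 without Fz7-21S replicate 4, and with all libraries under RLE factors (0.0378), a replicate block (0.0358) and DESeq2 (0.024). It did not pass in a fit of the compared groups alone (0.29). Slc2a1 (95.9, 94.1, 118 and 114 CPM with Fz7-21S), Pdk1 (94.1, 104, 129 and 108 CPM) and Vegfa (51.8, 53.4, 54.8 and 56.0 CPM) overlapped dFz7-21 and had adjusted p of 0.91, 0.786 and 0.834. Bnip3, at 1.16, 1.46, 2.24 and 1.46 CPM with Fz7-21S, had an adjusted p of 0.306.

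Fz7-21S and DMSO could not be told apart in these genes by the test. With edgeR 0 of the 31 genes were called at 24 h, where 0.259% of all genes were, and 0 at 6 h, where 0.00648% were. DESeq2 also called 0 at both times, where 120 of all genes were called at 24 h and 4 at 6 h. An unadjusted edgeR p below 0.05 was found for 4 of the 31 genes at 24 h and 2 at 6 h. The share of all genes below that value was not counted, so these 2 counts cannot be read as a result about the members. Groups did not overlap for 1 gene at each time, against 5.26% of all genes at 24 h and 4.60% at 6 h. The smallest p at 24 h was that of Pgk1 (0.43 ± 0.14, adjusted p = 0.162), at 28.3, 30.9, 27.5 and 51.8 CPM with Fz7-21S and at 27.0, 26.2, 26.3 and 22.7 CPM with DMSO. It passed without Fz7-21S 24 h replicate 1 (0.0447), and Ero1l passed without Fz7-21S 24 h replicate 4 (0.23, adjusted p = 0.012).

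After 6 h with dFz7-21 the number of genes called depended on which libraries were fitted. In the fit of all 24 libraries, of the 31 genes 4 rose and 0 fell against DMSO, or 12.9%, where 11.0% of all genes were called, 6.05% as higher and 5% as lower, and the median was 0.12 against 0.01. The share was thus near that of all genes. In a fit of the compared groups alone 12 rose and 2 fell, while the calls over all genes went from 1704 to 3640. Groups did not overlap for 13 genes, against 24.5% of all genes. Pfkfb3, the inducible form with high kinase activity (chromosome 2, 11471430 to 11554071), stood at 65.0, 62.3, 69.2 and 64.2 CPM with DMSO and at 99.3, 92.3, 94.6 and 80.6 CPM with dFz7-21. No library overlapped, and the difference was 0.49 ± 0.11 (adjusted p = 0.00355). Hk1 stood at 28.6, 32.8, 32.3 and 28.8 CPM with DMSO and at 41.2, 41.0, 42.5 and 37.6 CPM with dFz7-21, also without overlap (0.41 ± 0.10, adjusted p = 0.0059).

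Pfkp was at 141, 146, 158 and 153 CPM with DMSO and at 184, 173, 177 and 167 CPM with dFz7-21 (0.23 ± 0.06, adjusted p = 0.00676). Pfkfb4 was at 41.0, 43.9, 47.8 and 53.8 CPM with DMSO and at 63.1, 57.9, 54.3 and 52.9 CPM with dFz7-21, and here the groups overlapped (0.29 ± 0.08, adjusted p = 0.0176). DMSO 6 h replicates 1 and 2, which held mesenchymal transcripts, are among the 4 controls here. Without the 3 libraries with such transcripts only Hk1 passed, the others having adjusted p of 0.0727 (Pfkfb3), 0.222 (Pfkp) and 0.448 (Pfkfb4), while the calls over all genes fell to 698. Pfkfb4 also lost its call when replicate 1 or 2 of DMSO or replicate 1 of dFz7-21 was left out (0.0702 to 0.106).

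The other genes fixed for full values did not pass at 6 h in the fit of all libraries. Hk2 stood at 80.8, 82.8, 76.1 and 78.7 CPM with DMSO and at 84.3, 83.8, 81.7 and 85.8 CPM with dFz7-21, a difference of 0.08 with a 95% interval of -0.05 to 0.21. Slc2a1 stood at 174, 172, 182 and 190.0 CPM with DMSO and at 204, 215, 203 and 194 CPM with dFz7-21, and Pdk1 at 61.5, 63.8, 65.7 and 64.2 CPM against 48.7, 52.8, 56.6 and 52.4 CPM. Neither overlapped, and both missed the threshold (0.19, adjusted p = 0.0794, and -0.28, adjusted p = 0.076). Both passed in a fit of the compared groups alone (0.00378 and 0.000138), Slc2a1 also with DESeq2 (0.0492) and Pdk1 with a replicate block (0.0327). Hif1a stood at 184, 190.3, 189.9 and 181 CPM with DMSO and at 229, 214, 222 and 202 CPM with dFz7-21, again apart but not called (0.22, adjusted p = 0.288). Pkm, at 363, 375, 361 and 368 CPM against 404, 421, 399 and 407 CPM, was in the same position (0.15, adjusted p = 0.253). In a fit of the compared groups alone Hif1a (0.000862) and Pkm (0.00581) passed, and Hif1a also passed without 5 libraries, the 3 with mesenchymal transcripts, replicate 4 of Fz7-21S and replicate 2 of DMSO at 24 h (0.0072).

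Ldha stood at 686, 645, 705 and 725 CPM with DMSO and at 734, 734, 701 and 731 CPM with dFz7-21, overlapping (0.07, adjusted p = 0.751). For Vegfa the values were 41.1, 40.1, 38.0 and 43.6 CPM against 36.9, 42.2, 42.8 and 40.7 CPM (adjusted p = 0.993), and for Bnip3 0.498, 1.24, 0.830 and 0.870 CPM against 0.930, 1.06, 0.849 and 0.904 CPM (adjusted p = 0.894). Egln3, at 59.3, 54.2, 62.9 and 60.7 CPM against 80.6, 77.3, 69.7 and 73.8 CPM, did not overlap and just missed the threshold (0.35, adjusted p = 0.0552).

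Against Fz7-21S at 6 h, with the same dFz7-21 libraries, 2 of 31 genes rose and 0 fell, or 6.45%, where 7.04% of all genes were called, 3.21% as higher and 3.83% as lower. In a fit of the compared groups alone 9 rose and 3 fell, while the calls over all genes went from 1086 to 3159. The called members in that fit included Hif1a (0.19, adjusted p = 0.00248) and Pkm (0.12, 0.00632) upwards and Pdk1 (-0.24, 0.000674) downwards. Without the 5 libraries just named 3 rose and 2 fell, with 2863 calls over all genes. Groups did not overlap for 9 of the 31, against 21.6% of all genes. Hk1 stood at 30.3, 30.9, 28.1 and 29.3 CPM with Fz7-21S, below every dFz7-21 library (0.45 ± 0.10, adjusted p = 0.00398). Pfkp stood at 159, 156, 151 and 153 CPM with Fz7-21S (0.18 ± 0.06, adjusted p = 0.0499). This call was lost on leaving out any 1 of the 8 libraries (adjusted p from 0.0691 to 0.205). Pfkfb3 stood at 83.3, 71.6, 79.8 and 72.5 CPM with Fz7-21S, between the DMSO and most dFz7-21 libraries, and was not called against either (adjusted p = 0.198 for dFz7-21 against Fz7-21S, 0.999 for Fz7-21S against DMSO).

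Whether the difference from DMSO at 24 h exceeded that at 6 h was tested with an interaction term. It passed for 5 of 31 genes (16.1%, where 13.2% of all genes passed), 4 in the higher direction (7.37% of all genes) and 1 in the lower (5.78%). Pfkp gained 0.49 ± 0.08 (adjusted p = 0.000114), Ero1l 0.39 ± 0.08 (0.00222), Pfkfb4 0.46 ± 0.11 (0.007) and Ldha 0.43 ± 0.13 (0.0353). Hk2 moved by -0.49 ± 0.09 (0.000513). The term of Ldha was lost without DMSO 6 h replicate 1, 3 or 4, dFz7-21 6 h replicate 2, or DMSO 24 h replicate 2 or 4 (0.0522 to 0.076). Without dFz7-21 24 h replicate 1 the count was 12, while that over all genes went from 2029 to 2073. In a fit of the compared groups alone the count was 14 (12 higher and 2 lower), with 3418 over all genes. For Hk1 and Pfkfb3 the term did not pass (-0.09, adjusted p = 0.729, and -0.38, adjusted p = 0.127), so their difference at 6 h was not shown to be lost at 24 h. The Hk1 term includes dFz7-21 24 h replicate 3, at 43.8 CPM where the others stood at 28.8 to 30.2. Without that library the Hk1 difference from DMSO at 24 h was 0.17, so a small term for Hk1 does not show an equal difference at both times. Against Fz7-21S the term passed for 6 genes (19.4%, where 10.9% of all genes passed, 5.83% as higher and 5.10% as lower): Pfkp (0.58), Pfkfb4 (0.54), Gpi1 (0.35), Ero1l (0.31) and Aldoc (0.64) upwards and Hk2 (-0.36) downwards. The call of Aldoc was lost without dFz7-21 6 h replicate 2 (0.053) and that of Hk2 in a fit of the compared groups alone (0.0593), and Ldha passed without Fz7-21S 24 h replicate 4 (0.49, 0.0013) or dFz7-21 24 h replicate 1 (0.42, 0.0475).

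Between 6 h and 24 h these genes changed in both directions in every treatment. In DMSO 9 of 31 genes rose and 8 fell from 6 h to 24 h, or 54.8%, where 52.2% of all genes were called, 27.3% as higher and 24.9% as lower. In Fz7-21S 10 rose and 8 fell (58.1%, all genes 59.1%, of which 31% higher and 28.1% lower), and in dFz7-21 17 rose and 7 fell (77.4%, all genes 59.9%, of which 29.8% higher and 30.1% lower). The shares in DMSO and Fz7-21S were thus near those of all genes, while that in dFz7-21 was higher. The median was 0.05, 0.03 and 0.35 in DMSO, Fz7-21S and dFz7-21, in that order, and the 3 comparisons share no library. The times did not overlap for 17, 15 and 19 genes, against 53.1%, 49.8% and 60.7% of all genes. Called in all 3 in the same direction were 14 of the 31 (45.2%), against 38.4% of all genes: Gpi1, Pfkl, Pfkm, Pfkp, Tpi1, Pkm, Pdk1, Vegfa and Ankrd37 upwards, and Slc2a1, Hk2, Slc16a1, Pfkfb3 and Hif1a downwards.

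Pfkm (chromosome 15, 98092589 to 98132447) had the largest rise among the members with DMSO. It went from 13.7, 14.7, 12.4 and 13.1 CPM at 6 h to 31.2, 34.5, 30.3 and 32.9 CPM at 24 h, with no overlap (1.26 ± 0.08, adjusted p = 1.59e-12). It rose by 1.34 ± 0.08 with Fz7-21S and by 1.47 ± 0.08 with dFz7-21. Pfkfb3 fell the most, from the 62.3 to 69.2 CPM given above to 21.9, 22, 26.2 and 23.5 CPM with DMSO (-1.48 ± 0.12, adjusted p = 1.39e-10). It changed by -1.94 ± 0.12 with Fz7-21S and by -1.86 ± 0.12 with dFz7-21.

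Hk2 fell from above 76 to below 47 CPM with DMSO, so that no library of the earlier time overlapped the later one (-0.81 ± 0.06, adjusted p = 1.39e-10). The change was -0.95 ± 0.06 with Fz7-21S and -1.31 ± 0.07 with dFz7-21. Slc2a1 fell by 0.86 with DMSO, 0.92 with Fz7-21S and 0.96 with dFz7-21 (SE 0.07 each). Slc16a1 fell from 196, 191, 196 and 179.6 CPM at 6 h to 129.7, 132, 128 and 119.7 CPM with DMSO (-0.58 ± 0.05, adjusted p = 2.75e-09). Hif1a fell as well, from 181 to 190.3 CPM at 6 h to 119.5 to 124 CPM at 24 h (-0.62 ± 0.12, adjusted p = 0.000109).

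Pdk1 rose with time, to the 101 to 130.5 CPM given above from 61.5 to 65.7 CPM with DMSO (0.85 ± 0.10, adjusted p = 1.1e-07). The log2 change was 0.82 ± 0.10 with Fz7-21S and 1.01 ± 0.10 with dFz7-21. Pfkp rose by 0.47 ± 0.06 with DMSO and 0.38 ± 0.06 with Fz7-21S, and by 0.96 ± 0.06 with dFz7-21. Gpi1 rose by 0.31, 0.20 and 0.55 and Vegfa by 0.33, 0.40 and 0.43 in DMSO, Fz7-21S and dFz7-21, in that order. Gpi1 with Fz7-21S was not called without Fz7-21S 24 h replicate 3 (0.09, adjusted p = 0.16). Ldha did not pass with DMSO (-0.08, adjusted p = 0.518) or Fz7-21S (0.03, adjusted p = 0.82) and rose with dFz7-21 (0.35, adjusted p = 0.00279). Bnip3 did not pass with DMSO (0.53, adjusted p = 0.173) and rose with Fz7-21S and dFz7-21 (1.1 and 1.17). Pkm, Tpi1, Ankrd37, Egln3, Egln1 and P4ha1 were also called with DMSO, the first 3 higher and the last 3 lower, and each of these calls was lost on leaving out single DMSO libraries. Pkm lost it for replicates 1, 3 and 4 of either time (adjusted p from 0.0509 to 0.0953), and Tpi1 for replicates 1, 2 and 3 of either time (0.0638 to 0.117). Ankrd37 lost it for each replicate at 6 h and replicates 2 and 3 at 24 h (0.0613 to 0.269), and Egln3 for replicates 1, 3 and 4 at 6 h and 1 and 4 at 24 h (0.0514 to 0.115). Egln1 lost it for replicate 4 at 24 h (0.0636), and P4ha1 for replicate 2 at 6 h (0.0806) and replicate 4 at 24 h (0.099). With dFz7-21, calls over time were lost likewise for Hk1 (replicates 1, 2 and 4 at 24 h, 0.054 to 0.0678), Slc16a3 (replicates 1, 3 and 4 at 6 h and 3 and 4 at 24 h, 0.0519 to 0.0669) and Pfkfb2 (all but replicate 2 at 6 h, 0.061 to 0.161).

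**Figure D4:**
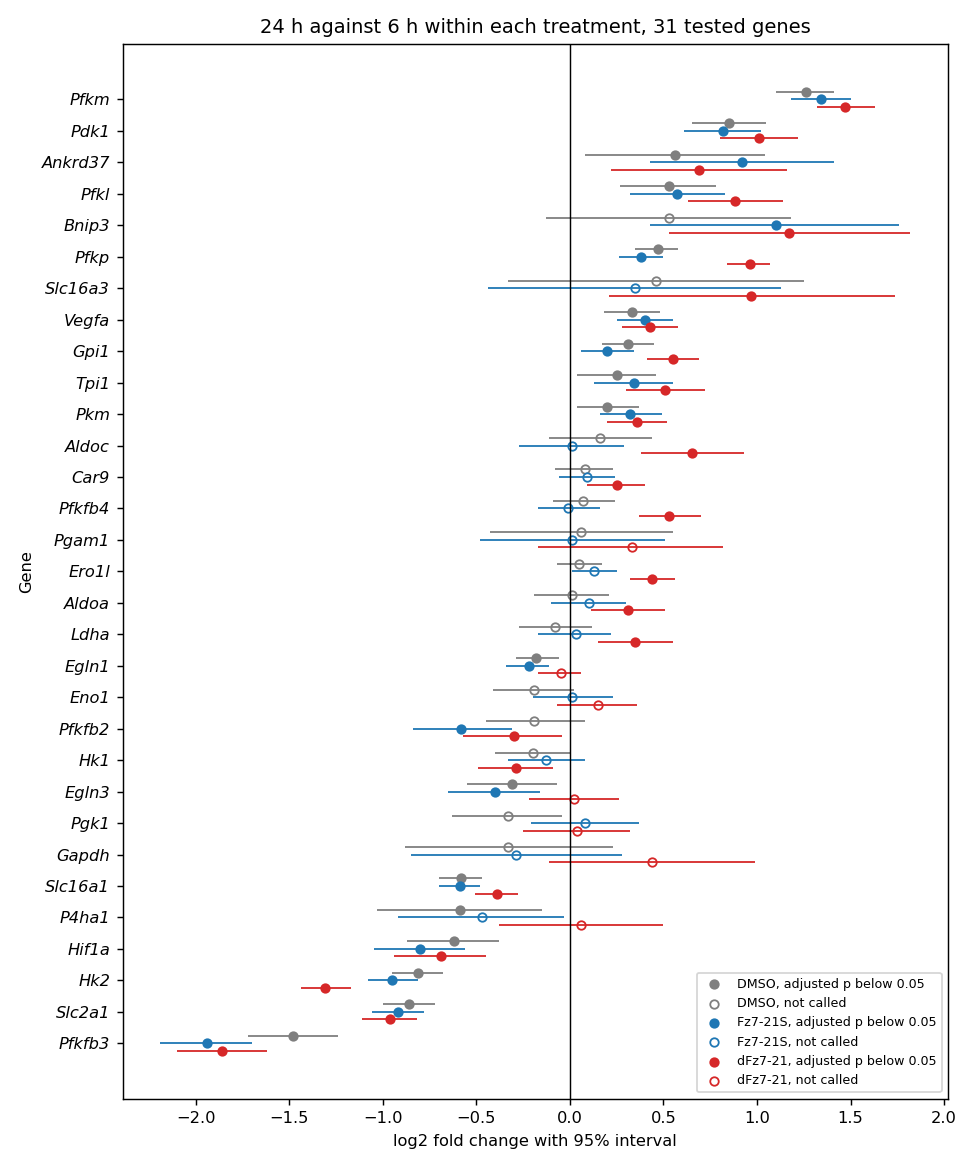
Log2 fold change from 6 h to 24 h with its 95% interval within DMSO (grey), Fz7-21S (blue) and dFz7-21 (red), 31 genes ordered by the value in DMSO; filled points passed at an adjusted p below 0.05. Pfkm lies at 1.26 to 1.47 and Pfkfb3 at -1.94 to -1.48 in all 3 treatments, while for Pfkp and Hk2 the red interval lies apart from the other two.

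Several steps have more than 1 isozyme, and the authors' RPKM, which are scaled by gene length, let their levels be compared. Among Hk1, Hk2, Hk3 and Hkdc1, the last, which is no member of the list, was the most abundant in every group. Hk2 made up 31.1% ± 2.48 (SD, n = 4) of the summed RPKM of these 4 genes with DMSO at 6 h and 17.7% ± 1.38 at 24 h. With dFz7-21 the share was 29.1% ± 1.75 at 6 h and 7% ± 0.415 at 24 h, and with Fz7-21S at 24 h it was 15.2% ± 1.54. Over the same comparison at 24 h Hkdc1 rose from 32 ± 3.34 to 73.3 ± 4.04 RPKM. Hk3 was at most 0.0441% of the sum in every group's mean.

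Pfkl was the main phosphofructokinase by RPKM, with 60.9% to 68.4% of the sum in the group means. Pfkp made up 28.6% ± 2.79 with dFz7-21 at 24 h, against 22.5% ± 1.63 with DMSO and 22.1% ± 3.24 with Fz7-21S. Of the monocarboxylate transporters Slc16a3 made up 30.5% ± 10.1 with dFz7-21 at 24 h, against 17.3% ± 6.56 with DMSO, where the groups overlapped. These 3 shares were chosen after their values were seen, so tests of them on the same libraries cannot count as evidence. In two-sided exact permutation tests of 4 against 4 libraries, Hk2 and Pfkp had p = 0.0286 for dFz7-21 against DMSO at 24 h, the smallest such a test allows. After adjustment over 27 tests this was 0.0643. Groups that were fully apart could reach no lower adjusted value here, so these tests decide nothing about the shares. Slc16a3 had p = 0.0857 in the exact test.

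**Figure D5:**
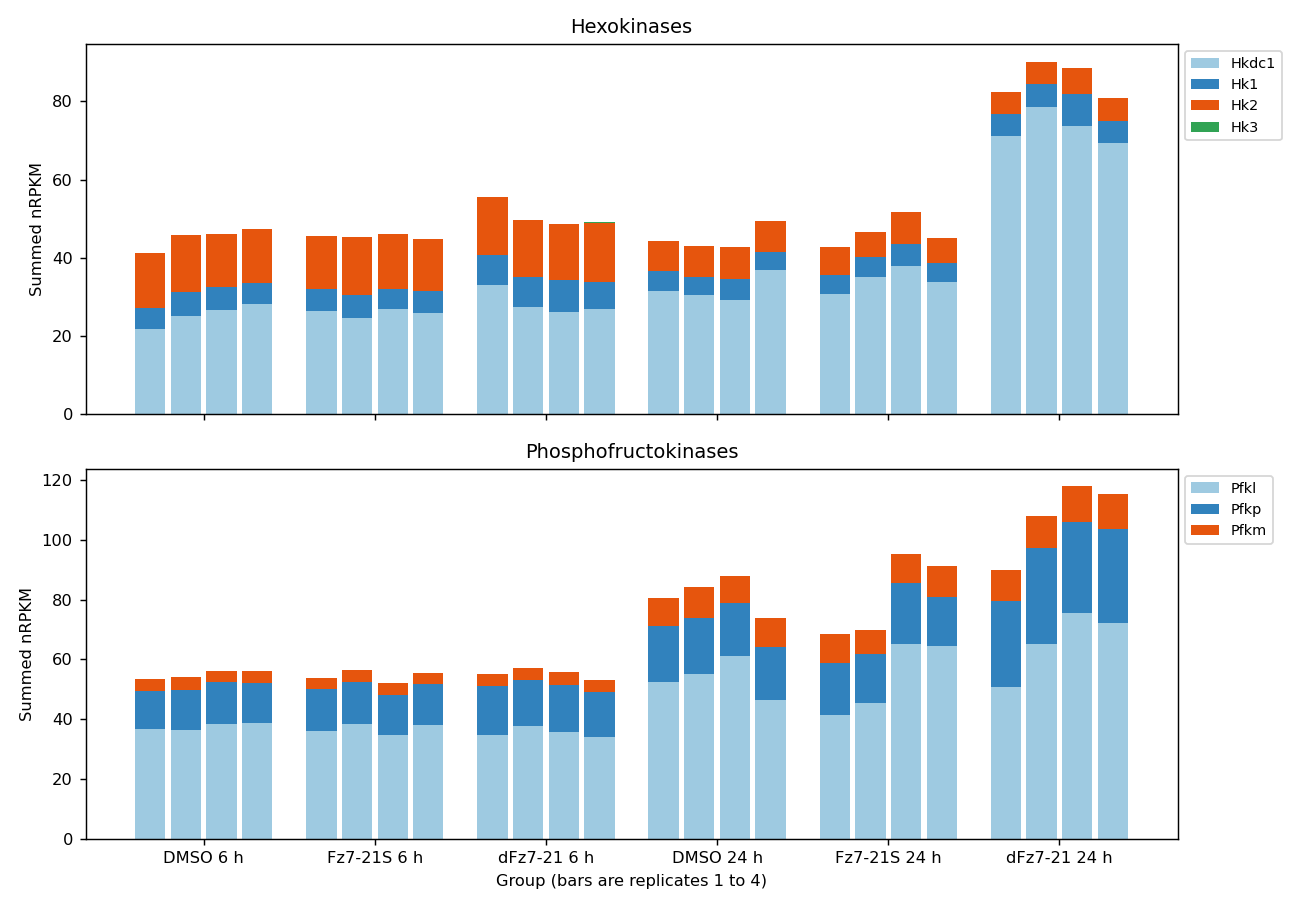
Summed RPKM of the hexokinases Hkdc1, Hk1, Hk2 and Hk3 (upper) and the phosphofructokinases (lower) in each of the 24 libraries, stacked by gene, with axes from 0. The upper sum at 24 h with dFz7-21 is higher than in the other groups through Hkdc1 (73.3 RPKM on average), while the Hk2 band is narrowest there.

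Within groups at 24 h the members tended to share their high and low libraries. With dFz7-21 replicate 1 was the lowest of the 4 for 25 of 31 members, against 20.8% of all genes, and the highest for 0. Replicate 3 of that group, which held mesenchymal transcripts, was the highest for 17 of 31 (25.2% of all genes). With DMSO replicate 3 was the highest for 18 of 31 (21.5% of all genes) and replicate 4 the lowest for 17 (24.0%). With Fz7-21S replicate 1 was the lowest for 20 (25.3%) and replicate 3 the highest for 15 (17.5%). At 6 h DMSO replicate 4 was the highest for 14 (27.9%) and dFz7-21 replicate 1 for 13 (29%). The spread with dFz7-21 at 24 h differed widely between members: the SD on the log2 scale was 0.715 for Slc16a3, the largest, 0.145 for Ldha, 0.0972 for Pkm, 0.0649 for Pfkp and 0.0358 for Ero1l. What differed between these libraries is not given in the labels.

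Lists of other genes of the same pathways were set beside the members and named by the smallest p. Of 42 tested genes of other sugar metabolism (46 listed), 23 rose and 2 fell with dFz7-21 against DMSO at 24 h (59.5%, all genes 35.9%), with a median of 0.25. Hkdc1, a hexokinase of epithelia, rose by 1.18 ± 0.08, the triokinase Tkfc, which feeds fructose into glycolysis, by 0.70 ± 0.06, and Pklr, the pyruvate kinase of liver and intestine, by 0.52 ± 0.06. The transporter Slc16a7 and the phosphatase Pdp1 fell (-1.26 ± 0.28 and -0.46 ± 0.12). Slc16a7 stood at a very low level, on average 0.071 RPKM with dFz7-21 and 0.17 RPKM with DMSO. Of 39 tested other HIF pathway genes (43 listed), 13 rose and 4 fell (43.6%, all genes 35.9%), with a median of 0.19. P4hb, a protein disulfide isomerase, rose by 0.48 ± 0.05, Ndrg1 by 0.58 ± 0.07 and Cited2, a transcriptional co-regulator, by 0.36 ± 0.06. The carbonic anhydrase Car12 (-0.52 ± 0.08), the HIF partner Arnt2 (-0.43 ± 0.11) and the mTOR inhibitor Ddit4 (-0.28 ± 0.07) fell.

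Of 5 genes of the MondoA and ChREBP sugar-sensing factors, Mlx (0.59 ± 0.05) and Mlxipl (0.21 ± 0.08) rose and Mlxip (-0.44 ± 0.12) and Txnip (-0.20 ± 0.06) fell. Against Fz7-21S at 24 h 15 sugar genes rose and 3 fell (42.9%), and 8 HIF genes rose and 4 fell (30.8%), where 33.7% of all genes were called. At 6 h against DMSO 3 sugar genes rose and 0 fell, led by Pgm2 (0.19 ± 0.05), and 7 HIF genes rose and 1 fell, or 7.14% and 20.5%, where 11.0% of all genes were called. Ccng2 (0.57 ± 0.08), Ndrg1 (0.50 ± 0.07) and the early response gene Ier3 (0.58 ± 0.13) rose and Car12 fell (-0.71 ± 0.08). Against Fz7-21S at 6 h 0 of 42 sugar genes were called. Of 39 HIF genes 2 rose and 2 fell (10.3%), where 7.04% of all genes were called. The DMSO group at 6 h includes replicates 1 and 2, which held mesenchymal transcripts, and these lists were not counted without them. From 6 h to 24 h in DMSO 26 sugar genes rose and 5 fell (73.8%, all genes 52.2%), with Pck2 (1.90 ± 0.07), the fructose transporter Slc2a5 (1.93 ± 0.09) and Pdk2 (1.82 ± 0.09) leading and Tigar, a phosphatase of fructose 2,6-bisphosphate, lower (-0.67 ± 0.05). Over the same interval 13 HIF genes rose and 13 fell (66.7%), among them Ddit4 (1.1 ± 0.08) upwards and Tfrc, the transferrin receptor, downwards (-1.65 ± 0.11).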

How the data were processed

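RNA of 24 organoid samples was extracted on RNeasy Micro columns, as the labels' protocols state. The authors deposited, for each of 36528 Entrez gene models, a count of uniquely aligned reads and an RPKM adjusted by a size factor, per the file headers. The submitters' processing notes name GSNAP and GRCm38. For annotation, filters and strand of counting the entry is: not given in the sources used here. Unique alignment loses reads of genes with near-identical copies. The ratio of RPKM to count was constant over genes between libraries (largest CV 1.9e-15). RPKM entered no edgeR or DESeq2 fit and served for shares between isozymes and the permutation tests of such shares. Symbols came from the RefSeq gene table of GRCm38 (31049 IDs matched).

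The deposited counts entered edgeR 4.0.16 in R 4.3.3, with TMM factors, filterByExpr on the 6 groups and a robust quasi-likelihood F test, in 1 fit of all 24 libraries, with Benjamini-Hochberg adjustment over 15429 genes. Levels are TMM-normalised CPM with n = 4 in each group, and log2 changes are ± SE. The script was tested on simulated data. Alternatives were DESeq2 1.42.0, RLE factors, no filter on low counts, the compared groups alone, the replicate number as a block, and leaving out libraries. Named with values in every library were, per comparison, the 4 called members with the smallest p in each direction, and Hif1a, Slc2a1, Hk2, Ldha, Pkm, Pdk1, Vegfa and Bnip3; for genes of the other lists, up to 3 with the smallest p in each direction. The members and lists were chosen with earlier results of these data known, and a list is described by its count and median only. No protein sequences were used here.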

Additional observations from a re-analysis of the deposited data

Results flagged for a closer look

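In groups of 4 libraries, 15 of 186 sets of values (31 genes in 6 groups) had a library that stood apart from the other replicates by Dixon's criterion, which chance alone gives in about 1 of 20. At 24 h these were Hk1 in dFz7-21 replicate 3 (43.8 CPM, the others 28.8 to 30.2), the library with mesenchymal transcripts, Eno1 in dFz7-21 replicate 1 (104 CPM, the others 133 to 138), Aldoc in DMSO replicate 3 (28.4 CPM, the others 19.0 to 19.5), Pgk1 in Fz7-21S replicate 4 (51.8 CPM, the others 27.5 to 30.9) and Egln1 in Fz7-21S replicate 1 (75.3 CPM, the others 83.2 to 83.9). At 6 h the dFz7-21 libraries gave Aldoa in replicate 2 (710 CPM), Pgam1 in replicate 2 (2.36 CPM), Ldha in replicate 3 (701 CPM), Ero1l in replicate 4 (91.7 CPM) and Ankrd37 in replicate 1 (7.48 CPM). Those of Fz7-21S gave Tpi1 in replicate 1 (426 CPM), Pgam1 in replicate 4 (2.57 CPM) and Pdk1 in replicate 1 (65.4 CPM), and those of DMSO gave Pgk1 in replicate 2 (29.7 CPM) and Ankrd37 in replicate 4 (5.26 CPM).

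The effect of dFz7-21 differed between 24 h and 6 h for 11 gene and control pairs, by the interaction term of the edgeR fit. These were 5 of 31 genes against DMSO, where 13.2% of all genes passed, and 6 of 31 against Fz7-21S, where 10.9% passed. The term of Ldha against DMSO was lost on leaving out single libraries, and that of Aldoc against Fz7-21S without dFz7-21 6 h replicate 2. Against DMSO the difference of the log2 effects was -0.49 for Hk2, 0.49 for Pfkp, 0.43 for Ldha, 0.46 for Pfkfb4 and 0.39 for Ero1l. Against Fz7-21S, with the same dFz7-21 libraries, it was -0.36 for Hk2, 0.35 for Gpi1, 0.58 for Pfkp, 0.64 for Aldoc, 0.54 for Pfkfb4 and 0.31 for Ero1l.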

How the results depend on the processing

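Over 1678 repeats of called members under other settings, 1534 kept direction and call, 144 lost the call and 0 changed direction. With only the compared groups in the fit, called members numbered 5 at 24 h against Fz7-21S, 14 and 12 at 6 h against DMSO and Fz7-21S, and 14 for the interaction with DMSO. Over all genes the calls went from 5202 to 2305, 1704 to 3640, 1086 to 3159 and 2029 to 3418, in that order. Without the 3 libraries with mesenchymal transcripts, called members numbered 9 at 24 h against Fz7-21S (4505 over all genes). At 6 h they numbered 1 against each control (698 over all genes for DMSO and 1021 for Fz7-21S). Leaving out replicate 4 of Fz7-21S and replicate 2 of DMSO at 24 h as well, they numbered 5 at 6 h against Fz7-21S (2863 over all genes). For the interaction with Fz7-21S they then numbered 10 (3565 over all genes). DESeq2 called 7 at 6 h against DMSO (2122 over all genes), and with no filter on low counts 1 was called at 6 h against Fz7-21S (786 over all genes). In each case the cause was not tested. Leaving out 1 library gave 12 to 21 (dFz7-21 against DMSO) and 12 to 19 (against Fz7-21S) at 24 h, 3 to 4 and 1 to 1 at 6 h, 0 to 1 for Fz7-21S against DMSO at 24 h and 0 to 0 at 6 h. It gave 13 to 15, 21 to 24 and 18 to 19 over time in DMSO, dFz7-21 and Fz7-21S, and 4 to 12 and 5 to 9 for the interactions with DMSO and Fz7-21S. Over all genes, leaving out 1 library gave 4846 to 5171 and 4363 to 5836 calls for dFz7-21 against DMSO and Fz7-21S at 24 h. At 6 h it gave 1172 to 1636 and 638 to 896, and for Fz7-21S against DMSO 22 to 1390 at 24 h and 0 to 1 at 6 h. Over time in DMSO, dFz7-21 and Fz7-21S it gave 7408 to 7667, 8646 to 8870 and 8449 to 9221. The interactions with DMSO and Fz7-21S had 1771 to 2073 and 1348 to 2878. Replicate numbers did not pair the libraries: deviations of same-numbered libraries correlated at -0.10 to 0.14, and the labels name no shared batch. With the replicate number as a block, 18 members were called at 24 h and 6 at 6 h against DMSO (5468 and 1720 over all genes). At 6 h against Fz7-21S 1 member was called (1075 over all genes), and Pfkp had an adjusted p of 0.0605. RLE factors moved the median of all genes by less than 0.1 on the log2 scale in every comparison. Slc16a3, then Bnip3, Gapdh, Pgam1 and Ankrd37 had the largest SE of the 31 genes in each comparison.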
